A study of Mus musculus with 9 samples.

Results

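The genes described here are 33 genes of glycolysis and of the response to low oxygen, out of 18042 genes in the table. They were taken by symbol from a written list. No measured value enters that rule, but the list was drawn up with earlier results of these data known. All 33 were found and passed the filter on low counts. By role, 11 take up glucose or belong to the upper steps of glycolysis, 6 belong to the lower steps, and 3 decide what becomes of pyruvate and lactate. The other 13 are 4 genes of the oxygen-sensing machinery and 9 further genes known to be induced by hypoxia.

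RNA was sequenced from tumour-associated macrophages isolated by flow cytometry as CD11b+ F4/80+ cells. The tumours were grown under the skin from MC38, a mouse colon carcinoma line, in wild-type (WT) female C57BL/6 mice aged 6 to 8 weeks. Mice were divided into groups on day 9, and the treatment was injected into the tumour. The Control group received solvent (PBS), the OMVs group OMVs and the IN@OMVs group IN@OMVs, the last 2 groups at 625 µg of vesicle protein per kg, which the labels also give as 12.5 µg per mouse. Each group had 3 libraries, called biological replicates in the labels. All 3 groups shared the strain, sex, tumour and sort. The labels spell out neither OMVs nor IN, and they leave unsaid if each replicate came from 1 mouse or from pooled mice, so p-values measure the spread between these libraries.

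Glycolysis turns glucose into pyruvate in the cytosol, and lactate dehydrogenase turns pyruvate into lactate, which leaves the cell through monocarboxylate transporters. When oxygen is low, prolyl hydroxylases no longer mark the HIF alpha subunits for destruction. HIF1A then pairs with ARNT and switches on glycolytic enzymes together with genes such as Car9 and Bnip3. In macrophages the same factor is also raised by bacterial products such as lipopolysaccharide, and inflammatory activation is known to increase glycolysis. HIF1A is controlled largely as a protein, which these RNA libraries do not measure.

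The HIF dimer binds DNA at a short core, ACGTG or GCGTG, so promoters of called members are shown, with every match to either core on either strand in capitals. Each window runs 5′ to 3′ along the gene's strand from 250 bases before its start to 50 bases after it, from RefSeq on GRCm38.p6. The 6 shown are those of the members called in most of the 3 comparisons, with ties among the members called in 1 comparison settled by the smallest p, which left out Pfkp and Slc16a3. A window was found for 32 of the 33 members, and where a gene has several the first listed is used. The windows lie at chr2:11553880-11554179 (minus strand) for Pfkfb3, chr12:73907617-73907916 (plus) for Hif1a, chr4:43506776-43507075 (plus) for Car9, chr12:54203825-54204124 (minus) for Egln3, chr11:78322823-78323122 (plus) for Aldoc and chr9:121857747-121858046 (minus) for Higd1a.
Pfkfb3: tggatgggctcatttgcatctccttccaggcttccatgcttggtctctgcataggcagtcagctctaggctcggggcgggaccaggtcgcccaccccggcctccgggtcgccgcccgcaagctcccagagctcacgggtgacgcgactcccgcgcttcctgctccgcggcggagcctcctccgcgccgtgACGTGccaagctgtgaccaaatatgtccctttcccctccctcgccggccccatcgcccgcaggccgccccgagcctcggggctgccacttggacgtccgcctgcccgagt
Hif1a: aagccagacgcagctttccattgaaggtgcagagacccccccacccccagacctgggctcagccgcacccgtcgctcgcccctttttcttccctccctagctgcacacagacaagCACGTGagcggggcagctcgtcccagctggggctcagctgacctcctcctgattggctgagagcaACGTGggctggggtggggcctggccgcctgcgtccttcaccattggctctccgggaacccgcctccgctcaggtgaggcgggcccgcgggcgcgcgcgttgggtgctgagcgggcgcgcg
Car9: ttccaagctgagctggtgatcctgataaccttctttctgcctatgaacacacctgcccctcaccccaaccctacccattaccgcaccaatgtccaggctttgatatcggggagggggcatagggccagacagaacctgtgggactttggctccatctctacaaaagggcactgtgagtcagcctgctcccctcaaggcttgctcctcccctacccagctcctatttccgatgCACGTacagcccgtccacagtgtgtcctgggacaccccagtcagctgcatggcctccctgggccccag
Egln3: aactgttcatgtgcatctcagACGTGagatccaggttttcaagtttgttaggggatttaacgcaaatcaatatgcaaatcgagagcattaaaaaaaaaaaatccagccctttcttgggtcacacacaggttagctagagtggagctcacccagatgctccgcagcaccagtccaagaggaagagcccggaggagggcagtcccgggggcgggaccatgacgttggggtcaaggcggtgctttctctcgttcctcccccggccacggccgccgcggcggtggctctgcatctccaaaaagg
Aldoc: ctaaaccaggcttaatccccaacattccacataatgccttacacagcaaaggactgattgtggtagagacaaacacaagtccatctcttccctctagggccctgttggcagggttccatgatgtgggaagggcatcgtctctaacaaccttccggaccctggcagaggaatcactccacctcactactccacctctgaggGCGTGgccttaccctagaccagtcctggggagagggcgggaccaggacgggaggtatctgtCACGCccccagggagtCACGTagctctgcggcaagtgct
Higd1a: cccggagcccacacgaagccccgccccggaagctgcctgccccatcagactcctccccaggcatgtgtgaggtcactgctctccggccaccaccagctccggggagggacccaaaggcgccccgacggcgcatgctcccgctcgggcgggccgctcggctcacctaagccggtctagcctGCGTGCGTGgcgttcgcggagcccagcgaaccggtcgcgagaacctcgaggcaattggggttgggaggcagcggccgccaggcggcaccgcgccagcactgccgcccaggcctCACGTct

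In Car9 the only match, ACGTG read on the opposite strand, begins 18 bases before the start. Pfkfb3 has 1 match, 60 bases before the start, and Egln3 has 1, 229 bases before it. Hif1a has 3 ACGTG matches, and those 135 and 134 bases before the start are both strands of 1 palindrome, CACGTG. This palindrome is the E-box that Myc family proteins bind, and it overlaps the HIF core by construction. Aldoc has 2 GCGTG matches and 1 ACGTG match, and Higd1a has 2 overlapping GCGTG matches, 70 and 66 bases before the start, with 1 ACGTG 44 bases after it. Among the 32 members' first windows, 25 (78.1%) held at least 1 of the cores, against 43.8% of the first windows of all 27025 genes. ACGTG alone was in 18 members' windows (56.2%, against 19.7% of all genes), GCGTG in 18 (56.2%, against 32.5%) and CACGTG in 3 (9.38%, against 7.24%). The members were listed for glycolysis and hypoxia, so more HIF cores could be expected from that choice, and these shares are no result of the libraries. The 27025 genes are all those with a window, not the 13090 tested here. The cores were present in promoters of genes that moved in opposite directions below. Members' windows held 51.3% to 86.0% G and C, a property that moves with such matches, and its part was not tested.

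Total expected counts ran from 16813230 to 17288322 per library, so depth was close to equal. IN@OMVs 1 stood apart: its chi-square per degree of freedom over genes was 40.2 and 33.3 against IN@OMVs 2 and 3, which differed from each other by 3.58, while other same-group pairs lay between 2.04 and 13.6. Its 12 fibroblast markers summed to 1817 CPM (counts scaled to library size with TMM factors), against 5644 and 5544 in IN@OMVs 2 and 3 and 4016 to 6647 in the other 2 groups. The 12 macrophage markers summed to 13189 to 15331 CPM in Control, 12508 to 16736 in OMVs and 13012 to 18808 in IN@OMVs, with 0 of 12 called in any comparison. Over all genes at most 6.55% were called in any comparison. Between IN@OMVs and Control 5 of the macrophage markers did not overlap (41.7%, against 25.9% of all genes), 4 higher and 1 lower. The lower one was Itgam, at 1080 to 1480 CPM in IN@OMVs and 1726 to 1798 in Control. Markers of some other cells moved with the groups. The 12 neutrophil markers summed to 1135 to 1607 CPM in Control, 836 to 1106 in OMVs and 233 to 288 in IN@OMVs. The 10 monocyte markers summed to 2193 to 2682, 1652 to 1834 and 1252 to 1388 CPM in the same order. The 12 epithelial or tumour cell markers summed to 57.3 to 76.2, 53.7 to 59.1 and 41.7 to 47.8 CPM, with Cldn3 and Cldn4 at 0 in all 9 libraries. The 11 T cell markers in the table summed to between 92.5 and 309 CPM and were highest in library 1 of each group. Some markers rose in IN@OMVs against Control: 2 of 9 of conventional dendritic cells (Batf3 by 1.33, edgeR adjusted p = 0.0168, and Clec9a by 1.31, adjusted p = 0.0083), 1 of 8 tested of endothelium (Kdr by 0.98, adjusted p = 0.0112) and 1 of 11 of T cells (Il7r by 0.54, adjusted p = 0.0097). These were 22.2%, 12.5% and 9.09% of the lists, where 3.32% of all genes were called higher. A single call in a list this short is no result about the cell type. In that comparison 3 of 9 dendritic cell markers and 5 of 8 endothelial ones had negative fold changes, and all 11 T cell markers positive ones. Flt3, of the dendritic cell list, measured 3.75 to 7.33 CPM in Control and 2.05 to 3.73 in IN@OMVs. The summed dendritic cell markers lay at 47.8 to 66.2 CPM in Control, 45.2 to 52.5 in OMVs and 51.3 to 69.5 in IN@OMVs. The endothelial ones lay at 31.8 to 35.8, 40.7 to 48.1 and 31.5 to 36.1. Against OMVs, Batf3 and Kdr also rose and Pecam1, another endothelial marker, fell by 0.77 (edgeR adjusted p = 0.0183). The part of these markers in the members' results was not tested.

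**Figure D1:**
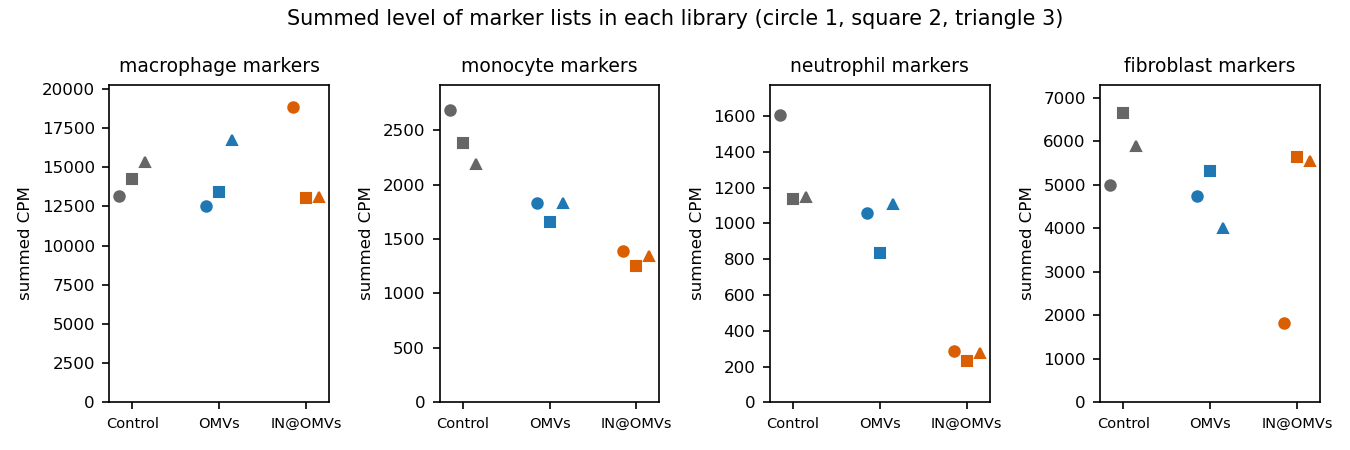
Summed CPM (vertical axes, from 0) of the macrophage, monocyte, neutrophil and fibroblast marker lists in the 9 libraries by group, each point being 1 library. Neutrophil markers sum to 233 to 288 CPM in IN@OMVs and to at least 836 CPM in every other library, and macrophage markers overlap across groups.

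Macrophages of the IN@OMVs group were first set against those of Control. In them 5 members rose, Car9, Egln3, Aldoc, Higd1a and Pfkp, and 3 fell, Pfkfb3, Hif1a and Slc16a3. The largest change was that of Car9, 1.14 ± 0.20 (log2 fold change ± standard error, 3 libraries per group), and the largest fall that of Pfkfb3, -0.61 ± 0.12. These 8 calls were 24.2% of the members, where 6.55% of the 13090 genes tested passed the same threshold (edgeR quasi-likelihood test, Benjamini-Hochberg adjusted p of 0.05 over all genes). Higher calls made up 3.32% of all genes and lower calls 3.24%. The 3 libraries of each group did not overlap for 18 members (54.5%), 13 higher and 5 lower, against 25.9% of all genes (13.3% higher and 12.5% lower). The fold change was positive for 22 members and negative for 11, with a median of 0.12, where 49.5% of all genes were above 0 and their median was -0.0024. With the replicate number as a block 5 of the 8 calls were kept, Aldoc, Car9, Egln3 and Higd1a higher and Pfkfb3 lower. DESeq2 called 11 members, all 8 with Ndrg1 (adjusted p = 0.00632), Arnt (0.0168) and Hk1 (0.0463), where it called 9.05% of all genes. Leaving out 1 library gave 3, 0 and 2 members called without Control 1, 2 and 3, then 10, 2 and 2 without IN@OMVs 1, 2 and 3, and 9, 5 and 7 without OMVs 1, 2 and 3. In the same order these fits called 486, 400 and 393, then 1635, 631 and 496, and 764, 641 and 722 of all genes. With all 9 libraries 858 were called. In bulk RNA, fewer cells of a type and less RNA per cell cannot be told apart.

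The OMVs group was then set against the same Control libraries. In this comparison 0 of 33 members passed the threshold in edgeR, where 0.42% of all genes did (0.298% higher and 0.122% lower). Unadjusted edgeR p was under 0.05 for 8 of the 33 members and for 1105 of the 13090 genes tested (8.44%). DESeq2 called 2 members (Egln3, adjusted p = 0.0004, and Pgk1, adjusted p = 0.0193) and 1.58% of all genes, while limma-voom called 0. The fold change was positive for 28 members and negative for 5, with a median of 0.12 against -0.00049 over all genes, of which 49.8% were above 0. Groups did not overlap for 11 members (33.3%), all higher in OMVs, against 19.8% of all genes in either direction and 9.89% in each. Egln3 was called when the 2 groups were fitted alone (adjusted p = 0.0389) and without IN@OMVs 1 (adjusted p = 0.016).

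Between the treated groups, IN@OMVs against OMVs, 2 members fell, Pfkfb3 and Hif1a, which is 6.06% of the members, where 2.85% of all genes passed the threshold and 1.75% passed it as lower. Higher calls were 0 among the members and 1.1% of all genes. The fold change was positive for 15 members and negative for 18, with a median of -0.01 against -0.0035 over all genes, of which 49.1% were above 0. Groups did not overlap for 12 members (36.4%), 5 higher and 7 lower, against 17.6% of all genes (8.86% higher and 8.72% lower). DESeq2 called 6 members, adding Car9 (adjusted p = 0.00569), Pfkl (0.0018), Slc16a3 (0.00713) and Arnt (0.0349), where it called 4.94% of all genes. Without 1 library the edgeR count lay between 1 and 6, and it was 6 without IN@OMVs 1. Over all genes the fit without IN@OMVs 1 called 786, in place of 373 with all 9 libraries. Both comparisons with Control use the same 3 Control libraries, and both comparisons of IN@OMVs use the same 3 IN@OMVs libraries, so they are not independent of each other.

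**Figure D2:**
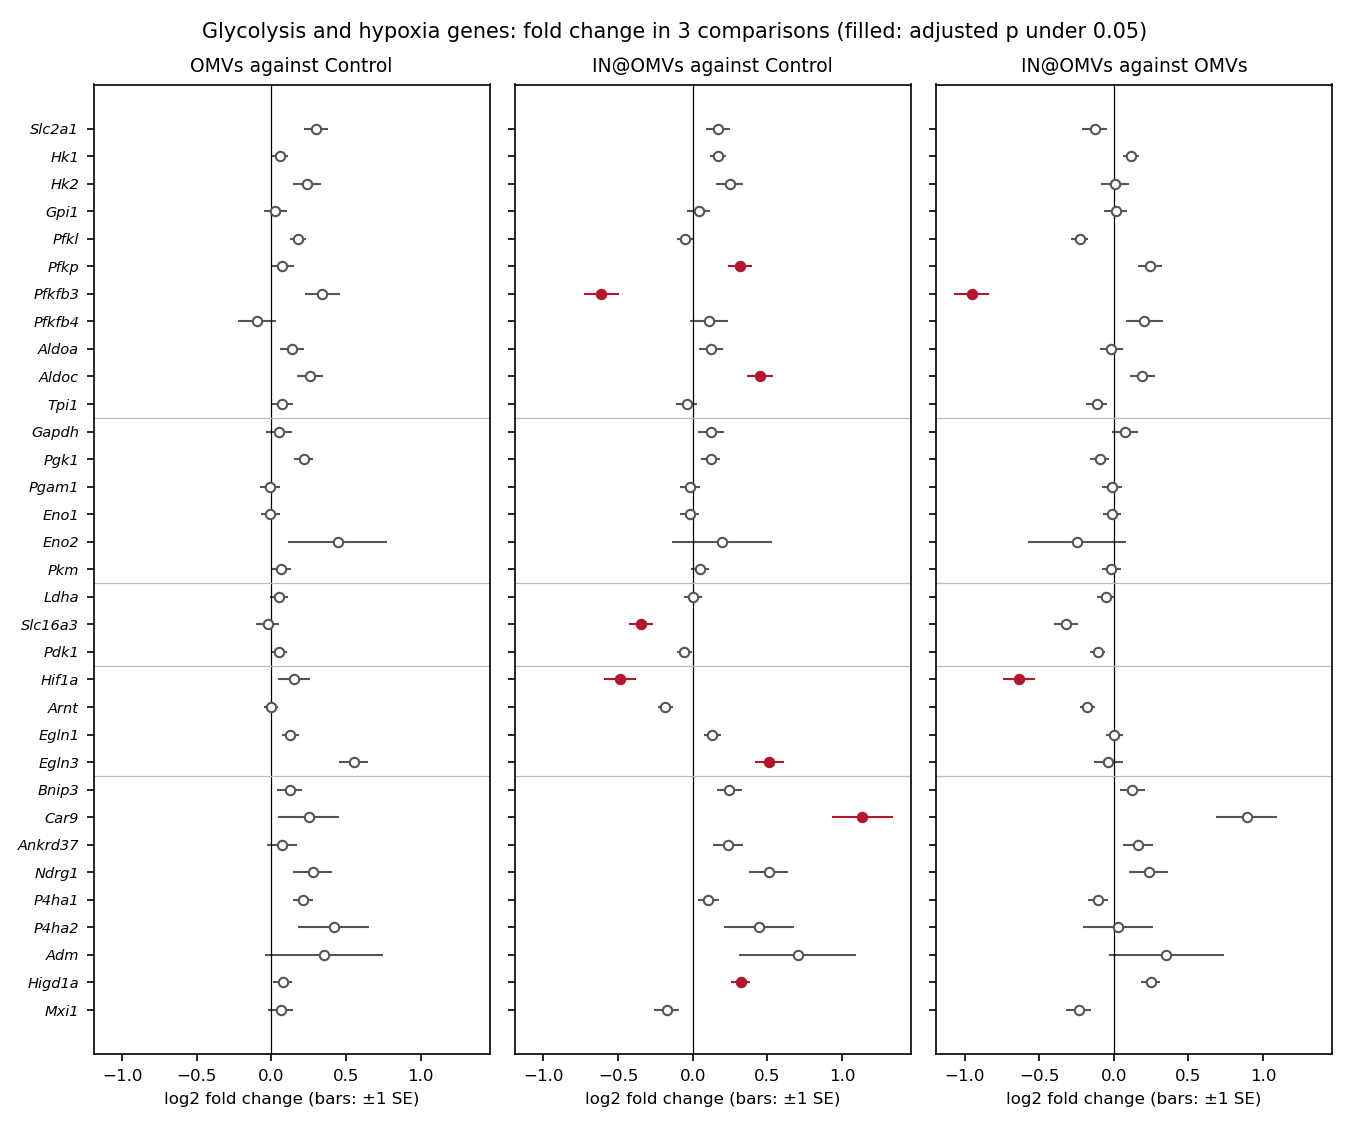
Log2 fold change (horizontal axis) of each of the 33 members in the 3 comparisons, with bars of 1 standard error to each side, filled where the adjusted p was under 0.05. The panel of OMVs against Control has 0 filled points, that of IN@OMVs against Control 8 and that of the treated groups 2, with Car9 farthest to the right and Pfkfb3 farthest to the left.

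Among the genes of glucose uptake and the upper steps, the largest changes were in Pfkfb3. It encodes the enzyme that makes the sugar bisphosphate which activates phosphofructokinase, and so sets the pace of glycolysis. Its level was 221, 208 and 214 CPM in Control, 227, 283 and 304 in OMVs and 157, 123 and 140 in IN@OMVs. All 3 IN@OMVs libraries were below all 6 others, and all 3 OMVs libraries were above all 3 Control libraries. Pfkfb3 fell by 0.61 on the log2 scale against Control (edgeR adjusted p = 0.0168, and 0.0405 with the replicate block). Against OMVs it fell by 0.95 (standard error 0.12, edgeR adjusted p = 0.00346, and 0.0141 with the block). The call against OMVs was kept in all 9 fits that left out 1 library, with adjusted p between 0.00068 and 0.0241. The call against Control was lost without Control 1, 2 or 3, IN@OMVs 2 or IN@OMVs 3, with edgeR adjusted p from 0.0502 to 0.0693. For OMVs against Control the difference was 0.34 ± 0.12 (edgeR adjusted p = 0.40). Pfkfb4, which encodes another enzyme of the same kind, measured 54.6 to 58.7 CPM in Control, 50.3 to 56.5 in OMVs and 50.4 to 74.5 in IN@OMVs, with overlapping groups and no call.  Neutrophil markers fell as well, 11 of 12 in each comparison of IN@OMVs. Over all genes 3.24% were called lower against Control and 1.75% against OMVs. The part of the neutrophil markers in the fall of Pfkfb3 was not tested.

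Phosphofructokinase commits sugar to glycolysis and has several isoforms. Pfkp, the platelet isoform, measured 180, 156 and 159 CPM in Control, 170, 170 and 181 in OMVs and 226, 193 and 198 in IN@OMVs. The IN@OMVs libraries lay above all others, with IN@OMVs 1 highest. Pfkp rose by 0.32 ± 0.08 against Control, with an edgeR adjusted p of 0.049, next to the threshold. It kept this call in 1 of 9 fits that left out a library, the one without Control 1, and the other 8 gave adjusted p from 0.0536 to 0.202. With the block it was 0.0502, and with only the 2 groups fitted 0.125. Pfkp shares reads with other sequences (fractional counts in 7 libraries) and overlaps an exon of Pitrm1 on the opposite strand. Pfkl, the liver isoform, measured 189 to 203 CPM in Control, 218 to 229 in OMVs and 180 to 196 in IN@OMVs. It was highest in OMVs without overlap, and the fitted difference of IN@OMVs from OMVs was -0.23 ± 0.05 (edgeR adjusted p = 0.0682, DESeq2 0.0018).

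Aldolase splits the bisphosphate sugar, and Aldoc encodes its isoform known from brain. Aldoc measured 44.4, 39.8 and 40.8 CPM in Control, 48.5, 47.0 and 53.9 in OMVs and 63.7, 52.8 and 54.1 in IN@OMVs. Control was lowest without overlap, and OMVs and IN@OMVs overlapped. Against Control Aldoc rose by 0.45 ± 0.09 in IN@OMVs (edgeR adjusted p = 0.0174; block, 0.0226), and the call was lost without Control 2 (0.086) or Control 3 (0.0927). The OMVs difference of Aldoc was 0.26 ± 0.09 (edgeR adjusted p = 0.386). Aldoa, the main aldolase of most tissues, measured 1411 to 1506 CPM in Control, 1527 to 1700 in OMVs and 1437 to 1726 in IN@OMVs and was not called.

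Slc2a1 encodes the glucose transporter of most cells, and Hk2 the inducible hexokinase that traps glucose in the cell. Slc2a1 measured 253, 229 and 238 CPM in Control, 258, 315 and 312 in OMVs and 275, 269 and 264 in IN@OMVs. Every treated library was above every Control library, yet the differences of 0.30 ± 0.08 in OMVs and 0.17 ± 0.08 in IN@OMVs had edgeR adjusted p of 0.254 and 0.303. Hk2 measured 108, 104 and 109 CPM in Control, 106, 132 and 141 in OMVs and 130, 124 and 127 in IN@OMVs. IN@OMVs lay above Control without overlap, by 0.25 ± 0.09 (edgeR adjusted p = 0.172). Hk2 was called against Control without OMVs 1 (adjusted p = 0.0293). Hk1, the hexokinase of most tissues, measured 155 to 167 CPM in Control, 162 to 170 in OMVs and 175 to 187 in IN@OMVs, a difference of IN@OMVs from Control of 0.17 that edgeR did not call (adjusted p = 0.113, DESeq2 0.0463). Gpi1 and Tpi1, which interconvert sugar phosphates, overlapped between groups in all 3 comparisons.

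**Figure D3:**
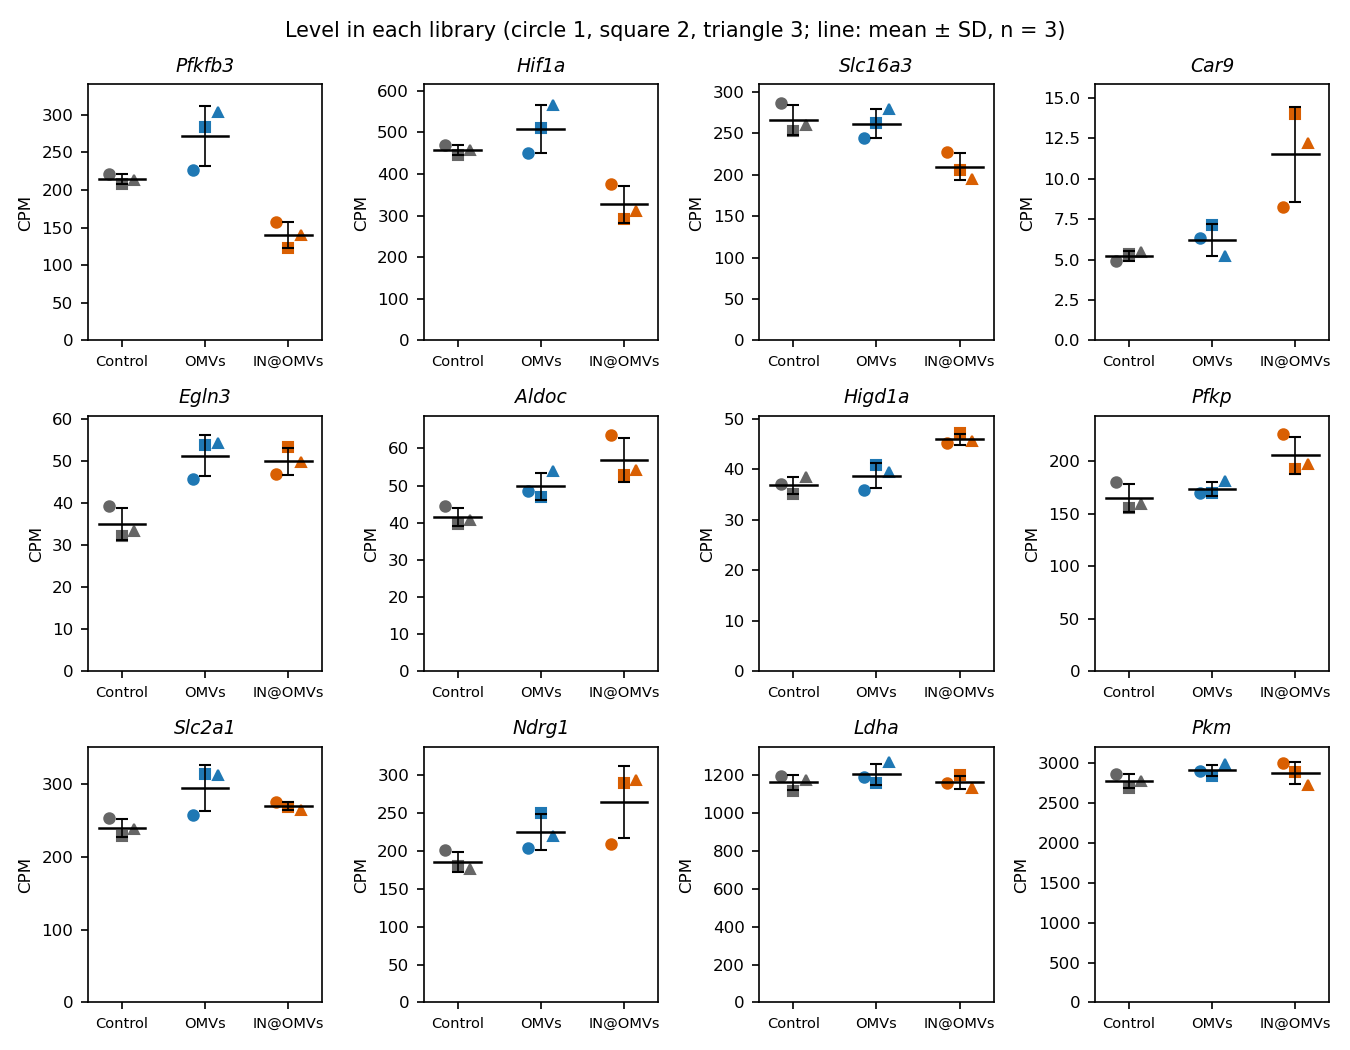
CPM (vertical axes, from 0) of 12 members in each library, with the mean and SD over the 3 libraries of each group. Pfkfb3 and Hif1a are lowest in the 3 IN@OMVs libraries, Car9 is highest there, and Egln3 is higher in both treated groups than in Control.

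The 6 genes of the lower steps had 0 calls by edgeR in all 3 comparisons. Over all genes it called 0.42% in OMVs against Control, 6.55% in IN@OMVs against Control and 2.85% in IN@OMVs against OMVs. With 6 genes, 0 calls is near those shares. DESeq2 called 1 of the 6, Pgk1, in OMVs against Control, where it called 1.58% of all genes. Pkm, which encodes the pyruvate kinase of this pathway, measured 2868, 2695 and 2779 CPM in Control, 2911, 2840 and 2987 in OMVs and 3008, 2888 and 2733 in IN@OMVs. The groups overlapped, and the difference of IN@OMVs from Control was 0.05, with a 95% interval from -0.09 to 0.19. Eno1, the main enolase, ran from 1678 to 1883 CPM over all 9 libraries, and Pgam1, the phosphoglycerate mutase, from 737 to 842. Gapdh, which yields the first reduced cofactor of the pathway, ran from 3773 to 4738 CPM with its highest value in IN@OMVs 1. Reads of Gapdh and Eno1 were shared with other sequences in 7 libraries, and both have near-identical copies in the genome. Pgk1, which makes the first ATP, was the exception in order: 978, 982 and 972 CPM in Control, 1087, 1091 and 1228 in OMVs and 1076, 1067 and 1043 in IN@OMVs. Each treated library of Pgk1 exceeded each Control library, by 0.22 ± 0.06 in OMVs (edgeR adjusted p = 0.271, DESeq2 0.0193) and 0.12 ± 0.06 in IN@OMVs (0.337). Eno2, the enolase known from neurons, ran from 2.83 to 7.64 CPM, too few counts for a narrow interval (-0.56 to 0.95 for IN@OMVs against Control).

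Among the genes that decide the fate of pyruvate and lactate, Slc16a3 fell in IN@OMVs against Control and Ldha was not called. Slc16a3 encodes the transporter that exports lactate from glycolytic cells. It measured 287, 252 and 260 CPM in Control, 244, 262 and 279 in OMVs and 227, 206 and 196 in IN@OMVs. Each IN@OMVs library was below each of the other 6. Slc16a3 fell by 0.35 on the log2 scale against Control (standard error 0.08, edgeR adjusted p = 0.0351; block, 0.0699), and the difference from OMVs was -0.32 ± 0.08 (adjusted p = 0.0792). The call against Control was lost without Control 1, 2 or 3, IN@OMVs 2, IN@OMVs 3 or OMVs 2, with edgeR adjusted p from 0.0672 to 0.125, and with only the 2 groups fitted (0.0744). Without IN@OMVs 1 Slc16a3 was also called against OMVs (0.0176). Its counts were fractional in 4 libraries. The part of the falling neutrophil and monocyte markers in the change of Slc16a3 was not tested either. Ldha, the lactate dehydrogenase subunit induced by HIF, measured 1194, 1116 and 1176 CPM in Control, 1189, 1158 and 1267 in OMVs and 1157, 1198 and 1130 in IN@OMVs. The interval of the Ldha difference between IN@OMVs and Control ran from -0.14 to 0.14. Pdk1, the kinase that closes the entry of pyruvate into mitochondria, ran from 99.8 to 115 CPM and was not called.

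Within the oxygen-sensing machinery Hif1a fell and Egln3 rose in IN@OMVs against Control. Hif1a, the oxygen-regulated subunit, measured 470, 446 and 459 CPM in Control, 450, 511 and 565 in OMVs and 376, 292 and 311 in IN@OMVs. Every IN@OMVs library was below every other library, and IN@OMVs 1 was the highest of its group. Hif1a fell by 0.49 against Control (standard error 0.11, edgeR adjusted p = 0.0298, and 0.0613 with the block) and by 0.64 against OMVs (standard error 0.11, edgeR adjusted p = 0.016, and 0.0423 with the block). The call against OMVs was lost without IN@OMVs 2, IN@OMVs 3, OMVs 2 or OMVs 3 (edgeR adjusted p from 0.051 to 0.0777), and when only these 2 groups were fitted (0.0613). The call against Control was lost without any 1 of the Control libraries, IN@OMVs 2, IN@OMVs 3 or OMVs 2, with adjusted p from 0.0572 to 0.117, and when only its 2 groups were fitted (0.0503). For Hif1a the difference of OMVs from Control was 0.15, with an interval from -0.09 to 0.39. Arnt, its constitutive partner, measured 85.5 to 91.9 CPM in Control, 86.2 to 90.8 in OMVs and 76.6 to 79.5 in IN@OMVs, a difference from Control of -0.18 ± 0.05 without overlap but without a call by edgeR (adjusted p = 0.0579, DESeq2 0.0168). Monocyte markers also fell, 7 of 10 against Control and 4 of 10 against OMVs, where 3.24% and 1.75% of all genes were called lower. The part of the monocyte markers in the fall of Hif1a was not tested.

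Egln3 encodes a prolyl hydroxylase that HIF itself induces. Egln3 measured 39.3, 32.2 and 33.3 CPM in Control, 45.7, 53.8 and 54.2 in OMVs and 46.8, 53.1 and 49.6 in IN@OMVs. All 6 treated libraries were above all 3 Control libraries, and the treated groups overlapped. Egln3 rose by 0.51 ± 0.10 in IN@OMVs against Control (edgeR adjusted p = 0.0158, and 0.0468 with the block). The OMVs difference of Egln3 was 0.55 ± 0.10 with an adjusted p of 0.0615, and IN@OMVs minus OMVs was -0.04 with an interval from -0.26 to 0.18. The IN@OMVs call for Egln3 was lost without Control 2 or 3, IN@OMVs 2 or IN@OMVs 3, with edgeR adjusted p from 0.0522 to 0.0773. Egln1, the main oxygen sensor among these enzymes, measured 102 to 105 CPM in Control, 109 to 117 in OMVs and 108 to 122 in IN@OMVs. Each treated library exceeded each Control library, and the difference of 0.13 in each treated group was not called (edgeR adjusted p of 0.60 and 0.25).

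Of the 9 other hypoxia-induced genes, 2 rose in IN@OMVs against Control (22.2%, against 3.32% of all genes called higher). The median of these 9 genes was 0.32 there, 0.21 in OMVs against Control and 0.16 between the treated groups. Car9 encodes a carbonic anhydrase at the cell surface that disposes of acid and is a common marker of hypoxia. Car9 measured 4.89, 5.32 and 5.47 CPM in Control, 6.32, 7.11 and 5.20 in OMVs and 8.25, 14.0 and 12.2 in IN@OMVs. The IN@OMVs libraries were above all others, and IN@OMVs 1 was the lowest of them. Car9 rose by 1.14 ± 0.20 against Control (edgeR adjusted p = 0.0118; block, 0.0178), and the difference from OMVs was 0.89 ± 0.20 (adjusted p = 0.0554). Without Control 1 or Control 2 the adjusted p of Car9 was 0.055 and 0.0557, and without IN@OMVs 1 it was also called against OMVs (0.00252). Higd1a encodes a small mitochondrial protein induced by hypoxia. It measured 37.0, 35.0 and 38.4 CPM in Control, 36.0, 40.9 and 39.4 in OMVs and 45.1, 47.2 and 45.6 in IN@OMVs. Each IN@OMVs library of Higd1a was above the other 6. Higd1a rose by 0.32 ± 0.06 against Control (edgeR adjusted p = 0.0191, and 0.0426 with the block), lost without Control 1, Control 2, IN@OMVs 2 or IN@OMVs 3 (0.0579 to 0.0924), and the difference from OMVs was 0.25 ± 0.06 (0.0892).

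The other 7 genes of that group were not called by edgeR with all libraries, and DESeq2 called 1 of them, Ndrg1, in IN@OMVs against Control. Ndrg1, a stress-induced gene widely used as a hypoxia marker, measured 201, 180 and 176 CPM in Control, 204, 250 and 220 in OMVs and 209, 290 and 293 in IN@OMVs. All 6 treated libraries were above Control, with IN@OMVs 1 far below the other 2 of its group. The difference of Ndrg1 between IN@OMVs and Control was 0.51 ± 0.13 (edgeR adjusted p = 0.0571, DESeq2 0.00632), and without IN@OMVs 1 it was 0.65 with an adjusted p of 0.0010. Bnip3, which directs mitochondria to autophagy, measured 179, 179 and 191 CPM in Control, 173, 208 and 216 in OMVs and 216, 223 and 212 in IN@OMVs. For Bnip3 the IN@OMVs libraries were above Control, by 0.25 ± 0.08 (adjusted p = 0.126), and it was called without OMVs 1 (0.0346).

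P4ha1, a collagen prolyl hydroxylase subunit, measured 236, 246 and 260 CPM in Control, 275, 300 and 284 in OMVs and 243, 275 and 279 in IN@OMVs. OMVs lay above Control without overlap, by 0.21 ± 0.07 (edgeR adjusted p = 0.37), and IN@OMVs overlapped Control. Its paralogue P4ha2 ran from 15.1 to 19.5 CPM in Control, 22.2 to 27.5 in OMVs and 15.3 to 31.3 in IN@OMVs, where IN@OMVs 1 was the low value. Adm, which encodes the vessel-dilating peptide adrenomedullin, measured 1.49, 2.81 and 2.36 CPM in Control, 1.72, 3.56 and 3.23 in OMVs and 2.03, 4.85 and 3.96 in IN@OMVs. Library 1 of Adm was the lowest in each group, the groups overlapped, and the interval for IN@OMVs against Control ran from -0.18 to 1.59. Ankrd37 measured 9.35 to 11.2 CPM in Control, 10.6 to 11.6 in OMVs and 11.9 to 12.8 in IN@OMVs, a difference from Control of 0.23 (edgeR adjusted p = 0.239), and its exons overlap Lrp2bp and Ufsp2 on the opposite strand. Mxi1, an antagonist of Myc, measured 103 to 114 CPM in Control, 98.9 to 123 in OMVs and 93.9 to 101 in IN@OMVs, where it was lower than Control by a fitted value of -0.17 that was not called (adjusted p = 0.305).

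**Figure D4:**
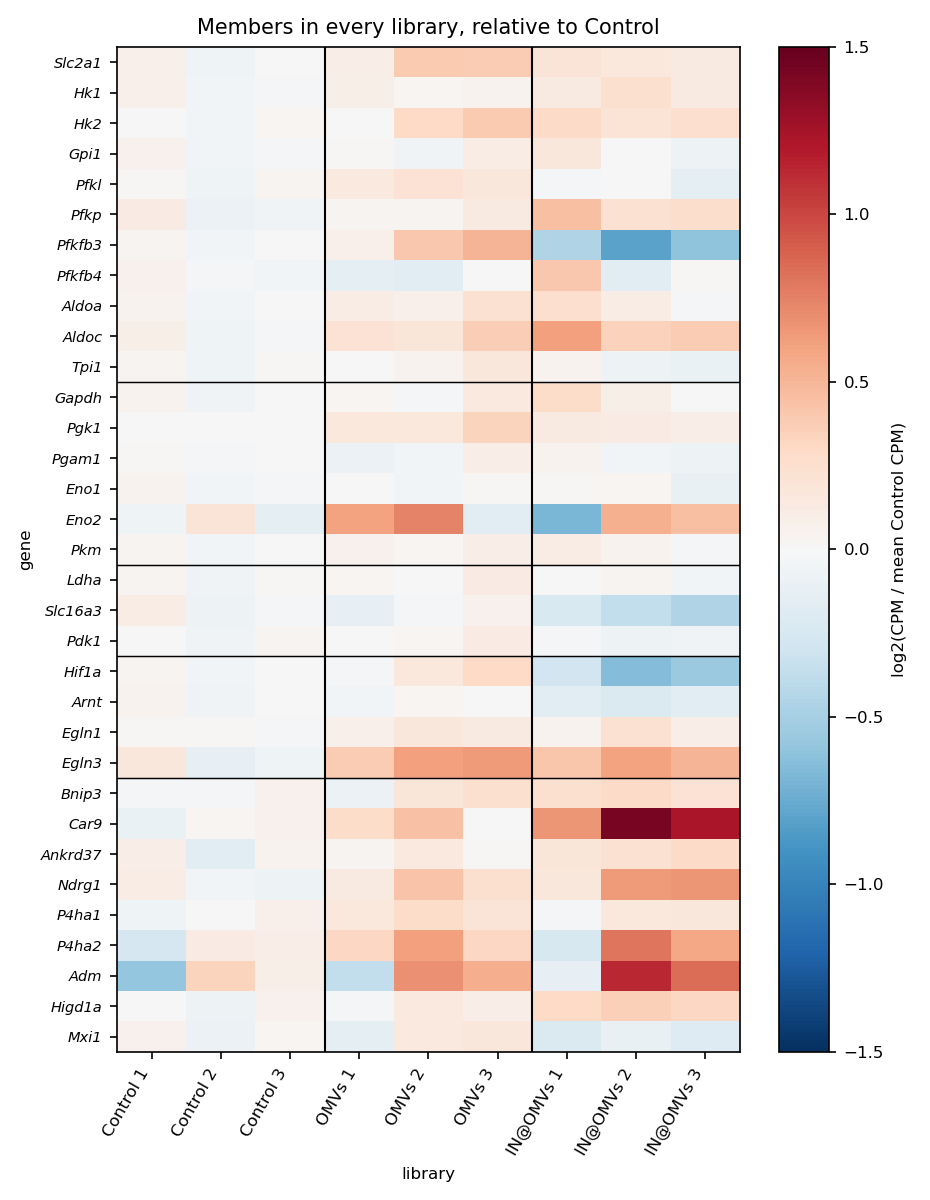
Log2 of CPM over the mean CPM of the 3 Control libraries (colour), for the 33 members (rows, by role) in the 9 libraries (columns). Pfkfb3 and Hif1a are below Control in all 3 IN@OMVs libraries, Car9 is above it there, and most lower glycolysis genes are near 0 in every library.

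Libraries of IN@OMVs did not share 1 order over the members. IN@OMVs 1 was the highest of its group for 16 members and the lowest for 11. IN@OMVs 2 was the highest for 13 and the lowest for 8, and IN@OMVs 3 the highest for 4 and the lowest for 14. Among the members lowest in IN@OMVs 1 were Car9, Ndrg1, P4ha1, P4ha2, Adm and Egln3. Among those highest in it were Pfkp, Pfkfb3, Aldoc, Gapdh, Hif1a and Slc16a3. Fibroblast markers summed to 1817 CPM in IN@OMVs 1, against 5644 and 5544 in IN@OMVs 2 and 3. The part of these markers in the values of the members, rising ones included, was not tested. Without IN@OMVs 1 the count of members called against Control was 10, with Ndrg1, P4ha2 and Arnt added and Pfkp lost. Over all genes that fit called 1635, in place of 858 with all 9 libraries.

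**Figure D5:**
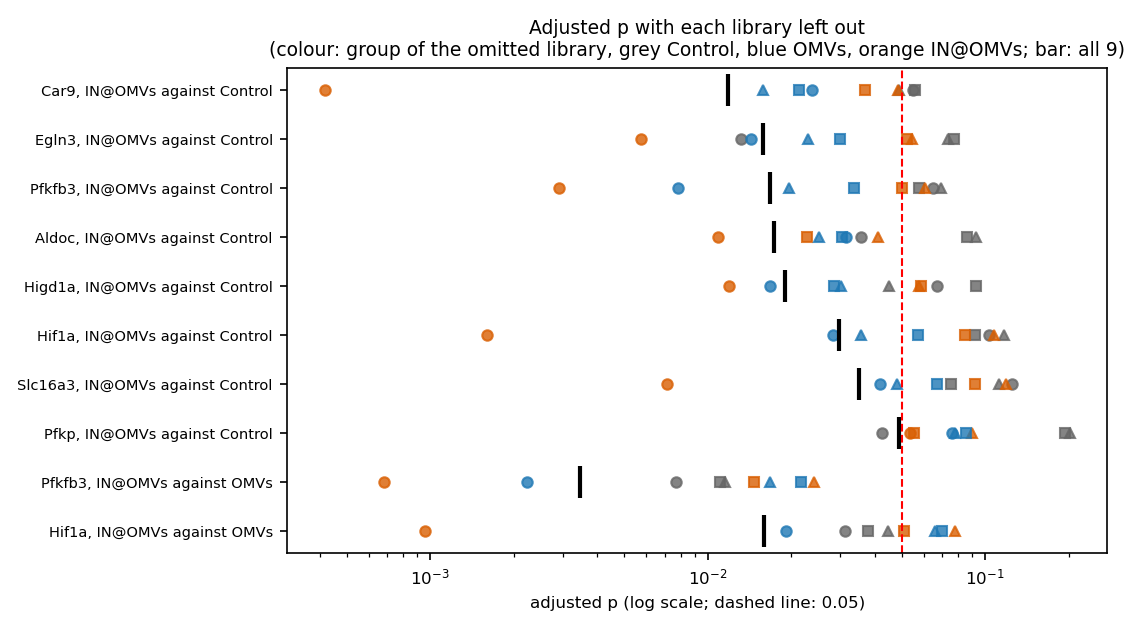
Adjusted p (horizontal axis, log scale, dashed line at 0.05) of each of the 10 calls when 1 of the 9 libraries was left out, coloured by the group of that library and shaped by its number (circle 1, square 2, triangle 3), with a bar for the fit of all 9. All points of Pfkfb3 against OMVs are left of the line, and for most calls the fit without IN@OMVs 1 has the smallest adjusted p.

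Other genes of the same pathways were read from written lists. Among 17 tested of 24 other glycolysis genes, 1 rose in IN@OMVs against Control (5.88%, below the 6.55% of all genes called) and 0 in the other comparisons. That gene was Hk3, the hexokinase of myeloid cells, at 210, 193 and 210 CPM in Control, 236, 268 and 305 in OMVs and 466, 348 and 346 in IN@OMVs. The groups of Hk3 did not overlap, and the rise against Control was 0.92 ± 0.13 (edgeR adjusted p = 0.00382). The median of this list was -0.07 against Control. Pyruvate entry and the citrate cycle had 1 of 30 tested genes lower in IN@OMVs against Control (3.33%, against 6.55% of all genes), Pdha1, a subunit of pyruvate dehydrogenase (fell by 0.21, edgeR adjusted p = 0.0362, and 0.0642 with the block). The 10 genes of the pentose phosphate pathway, a branch that yields reducing power, had 0 calls in any comparison. Over all genes at most 6.55% were called, so 0 of 10 is near that share. Glycogen and gluconeogenesis genes had 2 of 13 lower in IN@OMVs against Control (15.4%, against 6.55%). These were Pygl, the glycogen phosphorylase of liver and myeloid cells (fell by 0.56, edgeR adjusted p = 0.024, where the part of the neutrophil markers was not tested), and Pgm2 (fell by 0.35, adjusted p = 0.0234, and 0.0579 with the block). Pgm2 also fell against OMVs, by 0.38 (edgeR adjusted p = 0.0262, and 0.0683 with the block).

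Of 14 tested genes of the remaining HIF machinery, 2 rose in IN@OMVs against Control (14.3%, against 6.55% of all genes called and 3.32% called higher) and 1 in IN@OMVs against OMVs (7.14%, against 2.85%). The list's median against Control was 0.06. Vhl encodes the ubiquitin ligase subunit that recognises hydroxylated HIF. It measured 32.4, 33.1 and 31.9 CPM in Control, 31.8, 32.4 and 32.8 in OMVs and 40.6, 42.4 and 38.6 in IN@OMVs. The OMVs and Control libraries of Vhl overlapped, and IN@OMVs lay above both. Vhl rose by 0.32 ± 0.05 against Control (edgeR adjusted p = 0.00948) and by 0.33 ± 0.05 against OMVs (adjusted p = 0.0155). Siah2, which targets prolyl hydroxylases for degradation, rose by 0.40 ± 0.07 against Control (edgeR adjusted p = 0.0101), from 19.3 to 21.8 CPM in Control to 26.4 to 27.1 in IN@OMVs. Its OMVs libraries, at 23.4 to 24.8 CPM, also lay above Control, without a call.

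Among 26 tested of 28 other hypoxia-induced genes, 4 rose and 1 fell in IN@OMVs against Control, 0 were called in OMVs against Control, and 1 rose and 1 fell in IN@OMVs against OMVs. These calls were 19.2% of the list against 6.55% of all genes in the first of these comparisons, and 7.69% against 2.85% in the last. The list's median against Control was 0.09 in IN@OMVs and 0.11 in OMVs. Hmox1, the haem-degrading enzyme, measured 313, 421 and 470 CPM in Control, 291, 331 and 438 in OMVs and 928, 826 and 811 in IN@OMVs. Its IN@OMVs libraries lay far above the rest, a rise of 1.09 ± 0.18 against Control (edgeR adjusted p = 0.00722) and of 1.27 ± 0.18 against OMVs (0.00604). Hmox1 is induced by haem and oxidative stress as well as by hypoxia. Vegfa, the angiogenic factor, measured 120, 123 and 132 CPM in Control, 166, 246 and 195 in OMVs and 166, 210 and 214 in IN@OMVs. All treated libraries of Vegfa were above Control, and it rose by 0.65 ± 0.14 in IN@OMVs (edgeR adjusted p = 0.03), while the OMVs difference of 0.69 ± 0.14 had an adjusted p of 0.117. Bhlhe41, a transcriptional repressor, rose by 0.96 ± 0.19 (edgeR adjusted p = 0.0197). Hilpda, a lipid droplet protein, rose by 0.38 ± 0.09 (edgeR adjusted p = 0.0473, and 0.0991 with the block). It measured 27.2 to 31.4 CPM in Control, 36.6 to 46.2 in OMVs and 36.1 to 39.3 in IN@OMVs. Both treated groups of Hilpda were thus above Control without overlap. Tfrc, the transferrin receptor that takes up iron, measured 85.7, 75.8 and 74.1 CPM in Control, 92.2, 84.4 and 85.3 in OMVs and 49.5, 51.4 and 57.4 in IN@OMVs. It fell by 0.57 against Control (edgeR adjusted p = 0.0031) and by 0.73 against OMVs (0.00184), with no IN@OMVs library near the others.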

How the data were processed

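The authors deposited 1 table of expected counts per gene for the 9 libraries, estimated counts that are not normalised and were fractional for 10.4% to 11.2% of the values. Tools listed in the submitters' processing notes are RSEM, Bowtie2 and BWA, and builds mm9 and hg19, without versions or roles. RNA was extracted with TRIzol and libraries were made with oligo-dT beads, per the labels.

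After rounding, the counts went into edgeR 4.0.16 (R 4.3.3): TMM factors, filterByExpr, 1 mean per group over all 9 libraries, quasi-likelihood tests of 3 contrasts and Benjamini-Hochberg adjustment over 13090 genes at 0.05. The common dispersion was 0.0172, with 6 residual degrees of freedom. Levels are CPM. The steps were tested on simulated data. DESeq2 1.42.0, limma-voom (limma 3.58.1), other factors, no filter, 2-group fits, a replicate block and each library left out were alternatives.

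Libraries of the same number correlated in their deviations from the group means by 0.523, 0.363 and 0.116 for OMVs and Control and by 0.453, 0.302 and 0.141 for IN@OMVs and Control. No label says what a number marks. The fit behind the reported calls used no pairs, and the replicate block was an alternative fit. Libraries of different number correlated as well, OMVs 2 with Control 3 by 0.33, IN@OMVs 2 with Control 3 by 0.36 and IN@OMVs 3 with Control 2 by 0.289, so numbers 2 and 3 are not told apart by these values. For IN@OMVs and OMVs the values were 0.086, 0.488 and -0.355. The block joins all 3 groups by number, so it ties these libraries too.

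Every library's value is given for each member called in a comparison and for 12 members set by name, and other pathway genes are named where called, up to 8 per list. The members and lists were chosen with earlier results of these data known.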

Additional observations from a re-analysis of the deposited data

How the results depend on the processing

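The direction of each member's called change was the same in all 17 other fits. With the replicate block the members called were 5 for IN@OMVs against Control, 2 for IN@OMVs against OMVs and 0 for OMVs against Control, and over all genes 20 for OMVs against Control in place of 55. DESeq2 called 207 genes for OMVs against Control, 2 of them members, and 646 for IN@OMVs against OMVs, 6 of them members. Limma-voom called 36 genes for OMVs against Control. Library totals alone gave 4 members for IN@OMVs against OMVs. When the 2 groups compared were fitted alone, 115 genes and 1 member were called for OMVs against Control, 519 genes for IN@OMVs against Control, and 195 genes and 1 member for IN@OMVs against OMVs, where the call of Hif1a was lost. The fits of 2 groups also hold fewer libraries, and the cause of these shifts was not tested. Leaving out 1 library gave 0 to 266 genes and 0 to 1 member for OMVs against Control, 393 to 1635 genes and 0 to 10 members for IN@OMVs against Control, and 180 to 786 genes and 1 to 6 members for IN@OMVs against OMVs.

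The smallest change among the called members was 0.32 on the log2 scale with 3 libraries a group, so a member without a call is not shown to be unchanged. Adm, Eno2 and Car9 had few counts and wide intervals. RNA levels give no protein, enzyme activity or lactate.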

Other observations

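The Myc and Max network, to which Mxi1 belongs, binds the E-box CACGTG. Of the 32 members' first windows 3 held it (9.38%, against 7.24% of all genes). Of the network's 9 other tested genes, 1 rose and 1 fell in IN@OMVs against Control (22.2%, against 6.55% of all genes called). In OMVs against Control 0 were called, and 1 fell in IN@OMVs against OMVs (11.1%, against 2.85%). Max, the shared partner of the network, measured 92.3, 93.1 and 87.0 CPM in Control, 88.1, 92.2 and 101 in OMVs and 134, 109 and 112 in IN@OMVs. It rose by 0.38 ± 0.09 against Control (edgeR adjusted p = 0.0312, and 0.0669 with the replicate block). Mxd1, a Myc antagonist that is abundant in mature neutrophils, measured 113, 80.1 and 78.1 CPM in Control, 96.2, 91.8 and 101 in OMVs and 63.3, 45.8 and 51.7 in IN@OMVs. Mxd1 fell by 0.76 against Control (edgeR adjusted p = 0.0236) and by 0.84 against OMVs (adjusted p = 0.0245). The fall in neutrophil markers stands beside this value, and its part was not tested.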
